A study of Mus musculus with 43 samples.

Results

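Transcripts of 32 mouse genes that encode the glucose and lactate transporters, the enzymes of glycolysis and the enzymes that reverse or regulate it were measured in whole lungs of mice exposed to house dust mite extract (HDM). The genes were chosen by pathway, and Fbp1, which runs a glycolytic step backwards, was set beside the glycolytic genes. All 32 were among the 24475 genes of the deposited table, and all 32 were among the 15979 genes that passed the filter on low counts. Expression was compared on the log2 scale of CPM, counts scaled to a library total of 1e+06, per mouse over 7 groups of mice, 43 mice in all.

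HDM, an allergen extract that brings on type 2 airway inflammation, was instilled in the nostrils 3 times weekly. Mice with 19 weeks of HDM received both antibodies, that is itepekimab against IL-33 and dupilumab against IL-4Rα (n = 5, called the combination), itepekimab with isotype antibody (n = 6), dupilumab with isotype antibody (n = 7), or isotype control antibody (n = 7). The remaining mice had HDM for 19 weeks (n = 7) or 11 weeks (n = 6) with no antibody named, or saline (n = 5). All were female, on a mixed 129S6/C57BL/6 background, and the protocol gives an age of 8 to 12 weeks without saying at which point of the study. For work on the antibodies the mice carried human sequence in place of mouse Il4, Il33 and the outer domain of Il4ra, so the antibodies met human targets. The protocol names several starting points for antibody treatment, and the labels do not say which applies to these mice, how long saline was given, or whether the saline mice and the mice without antibody carried the human alleles. The series text names exposures of 4, 15 or 19 weeks, whereas these samples are labelled 11 or 19 weeks, and the sample labels were followed. Nothing in the labels says more than that the mice of a group are separate samples, so p-values measure the spread between these samples.

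Glycolysis splits glucose into pyruvate in the cytosol and yields ATP without oxygen, and lactate dehydrogenase then turns pyruvate into lactate for export. Hexokinase, phosphofructokinase and pyruvate kinase run the steps that are practically irreversible, and fructose-1,6-bisphosphatase opposes phosphofructokinase. In the lung, activated macrophages and neutrophils are known for strong glycolysis, and HIF-1, the transcription factor of low oxygen, induces many of the genes. Mammals have several gene copies for most steps, each with its own tissues, such as muscle forms for enolase and aldolase.

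Libraries held 11.9 M to 26.7 M counts (M standing for 1e+06). They differed in GC slope, the tilt of a library's log2 CPM on transcript GC content per 10 percentage points, relative to the mean library. Its group means were 0.34 with the combination, 0.27 for anti-IL-33, 0.26 for anti-IL-4Rα, -0.13 with isotype, 0.16 at 19 weeks, -0.38 at 11 weeks and -0.62 with saline. Within groups it ran from -0.98 to 1.01 with the combination, -0.36 to 1.24 for anti-IL-33 and -0.41 to 1.10 for anti-IL-4Rα. It ran from -0.45 to 0.37 with isotype, -0.41 to 0.85 at 19 weeks, -0.56 to -0.07 at 11 weeks and -0.85 to -0.35 with saline. Combination replicate 2, at -0.98, had the lowest slope of the 43 libraries. In 10 libraries the slope was above 0.75. These steep libraries were 3 with the combination, 2 of the anti-IL-33 group, 3 of the anti-IL-4Rα group and 2 at 19 weeks of HDM. For the 32 genes, each comparison was also fitted after adding the slope to the fit as a covariate and after leaving out the steep libraries. As a check of the tissue, the 7 markers of alveolar type 2 cells, which make lung surfactant, summed to 20184 CPM or more in every combination lung and to 11556 to 20608 CPM in saline lungs. In whole lung, fewer cells of a type and less RNA per cell cannot be told apart.

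HDM raised the expression of glycolytic genes, with gains at glucose uptake, hexokinase, aldolase, phosphoglycerate mutase and enolase. At 19 weeks 16 of the 32 genes were higher than with saline (edgeR adjusted p under 0.05), against 19.2% of all genes tested, and 3 were lower, against 15.6% of all genes. At 11 weeks 8 were higher, against 8.65% of all genes, and 1 was lower, against 6.74%. With isotype 12 were higher, against 13%, and 1 was lower, against 12.4%. These comparisons share the saline lungs. The median log2 fold change over the 32 genes was 0.86 at 19 weeks, 0.39 at 11 weeks and 0.66 with isotype, where the medians over all genes tested were 0.01, 0.00 and 0.01. At 19 weeks, 9 of the 32 genes had every exposed lung above every saline lung and 2 had every exposed lung below, against 13.9% and 14.7% of all genes. At 11 weeks 10 lay above throughout and 2 below, against 11.1% and 10.6% of all genes.

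**Figure D1:**
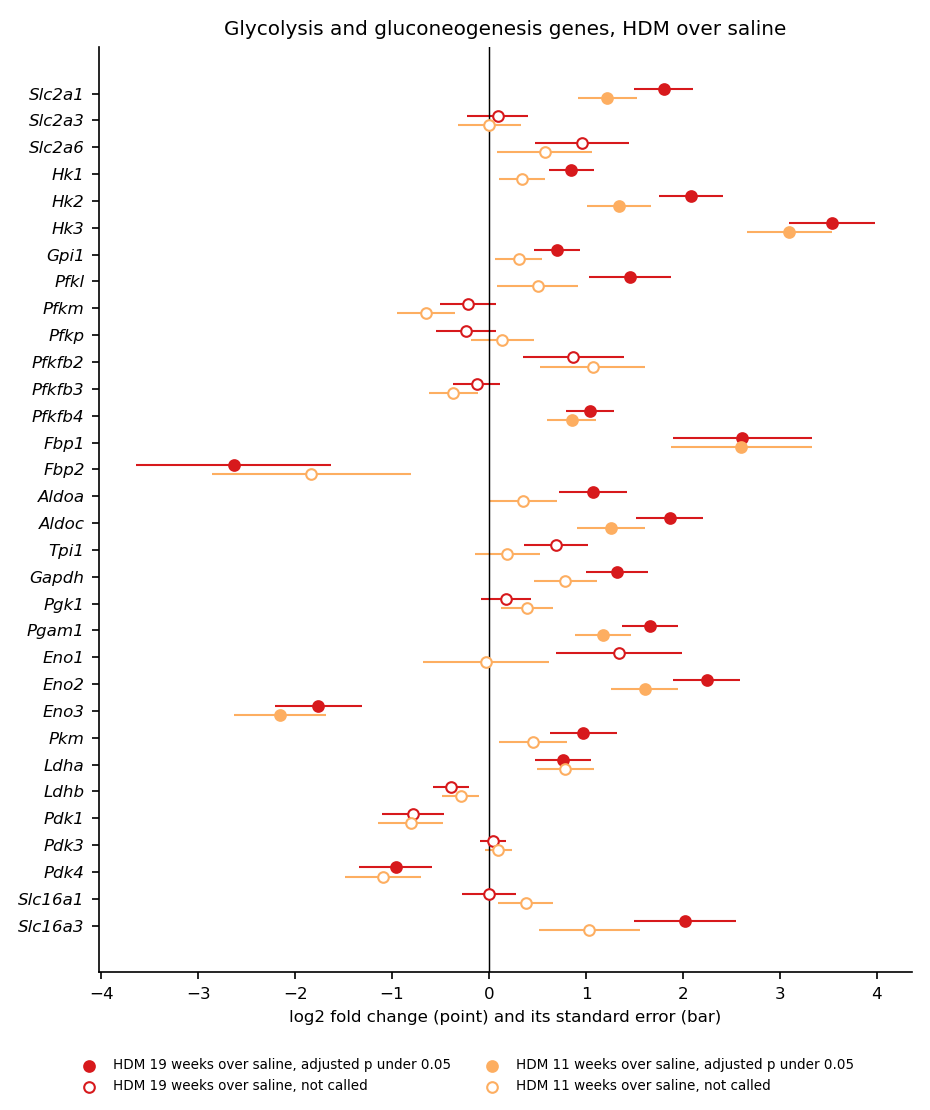
Log2 fold change (point) and standard error (bar) of the 32 genes after 19 weeks (n = 7) or 11 weeks (n = 6) of HDM over saline (n = 5), grouped from uptake at the top to lactate transport at the bottom. Filled points passed an adjusted p of 0.05, Hk3 lies farthest to the right at both times, and Fbp2 and Eno3 lie farthest to the left.

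Slc2a1 encodes GLUT1, the widely expressed glucose transporter (Gene ID 20525, chromosome 4, 119108745 to 119137330). It was between 46.6 and 101 CPM (median 80.1) at 19 weeks, between 38.1 and 78.5 CPM (median 42.00) at 11 weeks, and 18.1, 18.2, 28.9, 18.4 and 19.02 CPM in the 5 saline lungs. Every exposed lung was above every saline lung, and the highest saline value came from replicate 3. The increase was 3.48-fold at 19 weeks (log2 fold change 1.80 ± 0.30, adjusted p = 1.83e-05) and 2.33-fold at 11 weeks (log2 fold change 1.22 ± 0.30, adjusted p = 0.00418). Slc2a3, which encodes the high-affinity transporter GLUT3, did not pass at either time (0.09 ± 0.31 at 19 weeks and 0.00 ± 0.32 at 11 weeks). Slc2a6, a lysosomal transporter of macrophages, had a log2 fold change of 0.96 ± 0.48 at 19 weeks and did not pass (adjusted p = 0.114).

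Of the 3 hexokinases, which trap glucose as glucose 6-phosphate, Hk3 moved farthest (Gene ID 212032, chromosome 13, 55005985 to 55021475). Hk3, a form of myeloid cells, was between 49.96 and 117 CPM (median 74.6) at 19 weeks, between 37.7 and 95.8 CPM (median 48.8) at 11 weeks and between 36.6 and 158 CPM (median 70.8) with isotype, against 6.38, 7.22, 9.02, 5.21 and 6.97 CPM with saline. No exposed lung came near the saline range. The increase was 11.6-fold at 19 weeks (log2 fold change 3.54 ± 0.45, adjusted p = 1.21e-07) and 8.57-fold at 11 weeks (log2 fold change 3.10 ± 0.44, adjusted p = 1.90e-06). Hk2, the insulin-responsive and inducible form (Gene ID 15277, chromosome 6, 82725025 to 82774454), was between 59.9 and 146 CPM (median 90.9) at 19 weeks, between 44.4 and 77.9 CPM (median 60.1) at 11 weeks and 23.7, 23.4, 32.7, 19.6 and 19.9 CPM with saline. All exposed lungs again lay above all saline lungs, with a 4.24-fold increase at 19 weeks (log2 fold change 2.08 ± 0.33, adjusted p = 6.67e-06) and a 2.54-fold increase at 11 weeks (log2 fold change 1.34 ± 0.33, adjusted p = 0.00326). Hk1, the constitutive form, was between 86.7 and 196 CPM (median 104) at 19 weeks and 63.6, 66.9, 102, 74.00 and 66.2 CPM with saline. The groups overlapped, with 4 of 7 exposed lungs above all saline lungs, and Hk1 passed at 19 weeks (log2 fold change 0.85 ± 0.23, adjusted p = 0.00501) and not at 11 weeks (0.34 ± 0.24). With the GC slope as a covariate the Hk1 difference at 19 weeks was 0.33 (adjusted p = 0.0612), while Hk2 was 1.48 (adjusted p = 6.35e-06) and Hk3 2.93 (adjusted p = 3.87e-08).

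Per kilobase of the longest coding transcript, the order of the hexokinases differed between exposed and saline lungs. Mean levels in CPM per kilobase were 31.4 for Hk1, 25.1 for Hk3 and 18.4 for Hk2 at 19 weeks, against 17.4 for Hk1, 2.16 for Hk3 and 4.33 for Hk2 with saline. Hk3, the lowest of the 3 with saline, thus stood above Hk2 at 19 weeks, on a scale that rests on 1 transcript model per gene.

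Monocyte and macrophage markers were also higher at 19 weeks than with saline. The 11 monocyte and macrophage markers summed to 6851 to 12806 CPM at 19 weeks, 5482 to 12378 CPM at 11 weeks and 2615 to 5811 CPM with saline, and 7 of them were called higher and 1 lower at 19 weeks. The 9 neutrophil markers summed to 227 to 705 CPM at 19 weeks, 207 to 498 CPM at 11 weeks and 114 to 407 CPM with saline, and 1 of them, Ltf, was called higher at 19 weeks. The 7 markers of T and NK cells went the other way, with 30.5 to 50.4 CPM at 19 weeks and 54.9 to 125 CPM with saline, and 5 of them were called lower. No marker of these lists was at 0 in a whole group. The part of these cells in the result for Hk3 was not tested.

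Promoter sequences are shown for 4 genes that carry the exposure results, to let the bases upstream of genes that moved together be compared: the glucose transporter, both hexokinases with the larger changes, and the bisphosphatase Fbp1. Each is the 250 bases upstream of a RefSeq transcription start, written 5′ to 3′ along the gene, on build GRCm38.p6 (Slc2a1 at chr4:119108495-119108744, plus strand, Hk2 at chr6:82774455-82774704, minus strand, Hk3 at chr13:55021386-55021635, minus strand, Fbp1 at chr13:62888283-62888532, minus strand). Capitals mark ACGTG or GCGTG, the core bases of HIF-1 sites, or TTCNNNNGAA, the form bound by STAT6 (the transcription factor downstream of IL-4Rα), on either strand.
Slc2a1: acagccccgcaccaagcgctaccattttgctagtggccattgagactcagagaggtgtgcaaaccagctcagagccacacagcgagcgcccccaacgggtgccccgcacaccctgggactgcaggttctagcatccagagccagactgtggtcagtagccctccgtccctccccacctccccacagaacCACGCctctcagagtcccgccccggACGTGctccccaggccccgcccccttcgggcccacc
Hk2: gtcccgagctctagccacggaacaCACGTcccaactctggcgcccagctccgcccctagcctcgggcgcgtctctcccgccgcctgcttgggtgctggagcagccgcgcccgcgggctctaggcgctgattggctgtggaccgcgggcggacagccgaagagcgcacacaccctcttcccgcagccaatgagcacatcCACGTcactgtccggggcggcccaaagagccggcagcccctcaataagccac
Hk3: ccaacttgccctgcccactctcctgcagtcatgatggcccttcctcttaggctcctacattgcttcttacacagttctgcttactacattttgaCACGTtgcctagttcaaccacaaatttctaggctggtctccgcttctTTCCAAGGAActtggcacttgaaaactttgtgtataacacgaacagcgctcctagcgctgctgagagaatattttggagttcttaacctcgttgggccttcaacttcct
Fbp1: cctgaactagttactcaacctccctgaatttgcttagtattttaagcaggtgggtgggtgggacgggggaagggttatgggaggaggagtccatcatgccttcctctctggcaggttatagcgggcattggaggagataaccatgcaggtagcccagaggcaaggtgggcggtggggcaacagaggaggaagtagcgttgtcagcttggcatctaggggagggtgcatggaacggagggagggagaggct
The Slc2a1 window held 1 ACGTG and 1 GCGTG, the Hk2 window 2 ACGTG, the Hk3 window 1 ACGTG and 1 TTCNNNNGAA, and the Fbp1 window held none of the 3 motifs. Of the 32 genes, 31 matched the RefSeq table, with 46 windows. ACGTG stood in 19 of the 46 windows and in 16.6% of the 32851 windows of all genes, and GCGTG in 25 of 46 and in 28.2% of all. Either of them stood in 37 of 46 and in 38.6% of all, and TTCNNNNGAA in 3 of 46 and in 5.85% of all. Windows of a gene can overlap, and CACGTG counts for ACGTG on both strands. These matches describe the letters of the windows, and binding was not measured.

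Among the phosphofructokinases, which commit sugar to glycolysis, Pfkl, the liver form, passed at 19 weeks. Pfkl was between 80.5 and 189 CPM (median 107) at 19 weeks, between 48.9 and 94.3 CPM (median 63.2) at 11 weeks and 37.8, 38.4, 77.9, 40.01 and 35.6 CPM with saline. All 19-week lungs lay above all saline lungs (log2 fold change 1.45 ± 0.42, adjusted p = 0.00721), whereas the 11-week lungs overlapped with saline (0.50 ± 0.42, adjusted p = 0.506). With the GC slope as a covariate the 19-week difference was 0.49 (adjusted p = 0.0416). Pfkp, the platelet form, had -0.24 ± 0.31 and Pfkm, the muscle form, -0.22 ± 0.29 at 19 weeks, and neither passed. Gpi1, the isomerase between both sugar phosphates, was between 221 and 429 CPM (median 249.5) at 19 weeks and 179, 167, 279, 162 and 149.5 CPM with saline. The Gpi1 groups overlapped, the gene passed (log2 fold change 0.70 ± 0.24, adjusted p = 0.0203), and with the slope as a covariate its difference was 0.18 (adjusted p = 0.284).

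Pfkfb genes encode the enzymes that make and break fructose 2,6-bisphosphate, the activator of phosphofructokinase. Pfkfb4 was between 62.3 and 106 CPM (median 71.9) at 19 weeks, between 48.8 and 84.2 CPM (median 68.5) at 11 weeks and 38.4, 40.2, 37.6, 34.3 and 35.3 CPM with saline. Every exposed lung exceeded every saline lung, by 1.04 ± 0.24 on the log2 scale at 19 weeks (adjusted p = 0.00114) and 0.85 ± 0.25 at 11 weeks (adjusted p = 0.0143). Pfkfb3, the inducible form, did not pass (-0.13 ± 0.24 at 19 weeks). Pfkfb2 did not pass either (0.87 ± 0.52, adjusted p = 0.186), but with the GC slope as a covariate it was 2.08 (adjusted p = 8.00e-07) at 19 weeks and 1.49 (adjusted p = 6.18e-05) at 11 weeks.

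Fbp1, the liver form of fructose-1,6-bisphosphatase (Gene ID 14121, chromosome 13, 62864753 to 62888298), was higher with HDM than with saline. It was between 0.312 and 29.01 CPM (median 12.1) at 19 weeks, between 4.41 and 30.4 CPM (median 10.8) at 11 weeks, and 2.54, 2.203, 2.42, 2.100 and 1.95 CPM with saline. All 6 lungs at 11 weeks and 6 of 7 at 19 weeks were above all saline lungs, and the exception, replicate 6 at 19 weeks, was the lowest exposed lung at 0.312 CPM. The increase was 6.12-fold at 19 weeks (log2 fold change 2.61 ± 0.72, adjusted p = 0.00474), 6.08-fold at 11 weeks (log2 fold change 2.60 ± 0.73, adjusted p = 0.0105) and 4.51-fold with isotype (log2 fold change 2.17 ± 0.70, adjusted p = 0.0191). With the GC slope as a covariate these were 2.54 (adjusted p = 0.0106), 2.58 (adjusted p = 0.0074) and 2.14 (adjusted p = 0.0185). With the replicate number as a block they were 2.26 (adjusted p = 0.039), 2.235 (adjusted p = 0.0665) and 1.935 (adjusted p = 0.0722), called only at 19 weeks. Hk2 and Hk3 stayed called with that block in each of these comparisons. Thus the gene that opposes phosphofructokinase rose at 19 weeks, at 11 weeks and with isotype, as Hk2 and Hk3 did, but its calls were less firm than theirs.

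Markers of alternatively activated macrophages, cells that IL-4 and IL-13 induce, were higher with HDM as well. The 6 markers summed to 6248 to 21222 CPM at 19 weeks, 13838 to 19447 CPM at 11 weeks and 173 to 709 CPM with saline, with no overlap of exposed and saline lungs, and 5 of 6 were called higher at both times. The 9 alveolar macrophage markers summed to 4401 to 18129 CPM at 19 weeks, 7265 to 15478 CPM at 11 weeks and 309 to 899.8 CPM with saline. Of these 9, only Chil3, which the other list also holds, was called higher (4.81 ± 0.41 at 19 weeks and 5.16 ± 0.42 at 11 weeks), while 4 were called lower at 19 weeks and 3 at 11 weeks. No marker of either list was at 0 in a whole group, and the part of these cells in the results for Fbp1 and Hk3 was not tested.

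The muscle form Fbp2 went the other way at 19 weeks and rested on few counts. It had 0 to 124 counts per lung at 19 weeks, 23 to 245 at 11 weeks, and 434, 401, 709, 340 and 522 with saline. In CPM it was between 0 and 8.06 CPM (median 1.52) at 19 weeks and 20.8, 22.1, 24.5, 13.2 and 17.2 CPM with saline. All 19-week lungs lay below all saline lungs. With isotype it was between 0.145 and 23.9 CPM (median 10.8) and overlapped with saline. There the DESeq2 log2 fold change over saline was -0.85 (adjusted p = 0.587), not called. In edgeR, Fbp2 was called lower at 19 weeks (log2 fold change -2.63 ± 1.005, adjusted p = 0.0388) and not at 11 weeks (-1.83 ± 1.03). The call at 19 weeks was lost in 7 of the 12 fits that each left out 1 lung (adjusted p up to 0.0677), namely saline replicates 1, 2 and 3 and 19-week replicates 1, 6, 8 and 9.

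Set against the sum of Pfkl, Pfkm and Pfkp, there were 0.164 to 17.6 counts of Fbp1 per 100 phosphofructokinase counts at 19 weeks (median 7.76), 2.67 to 20.3 at 11 weeks (median 6.93), and 1.13 to 2.17 with saline (median 1.68). The phosphofructokinase sum itself ran from 155.7 to 257 CPM at 19 weeks and from 118 to 213 CPM with saline. The 11-week lungs therefore all had more Fbp1 relative to phosphofructokinase transcripts than any saline lung. At 19 weeks replicate 6 (0.164) and replicate 7 (1.71) were the exceptions, with replicate 7 inside the saline range.

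**Figure D2:**
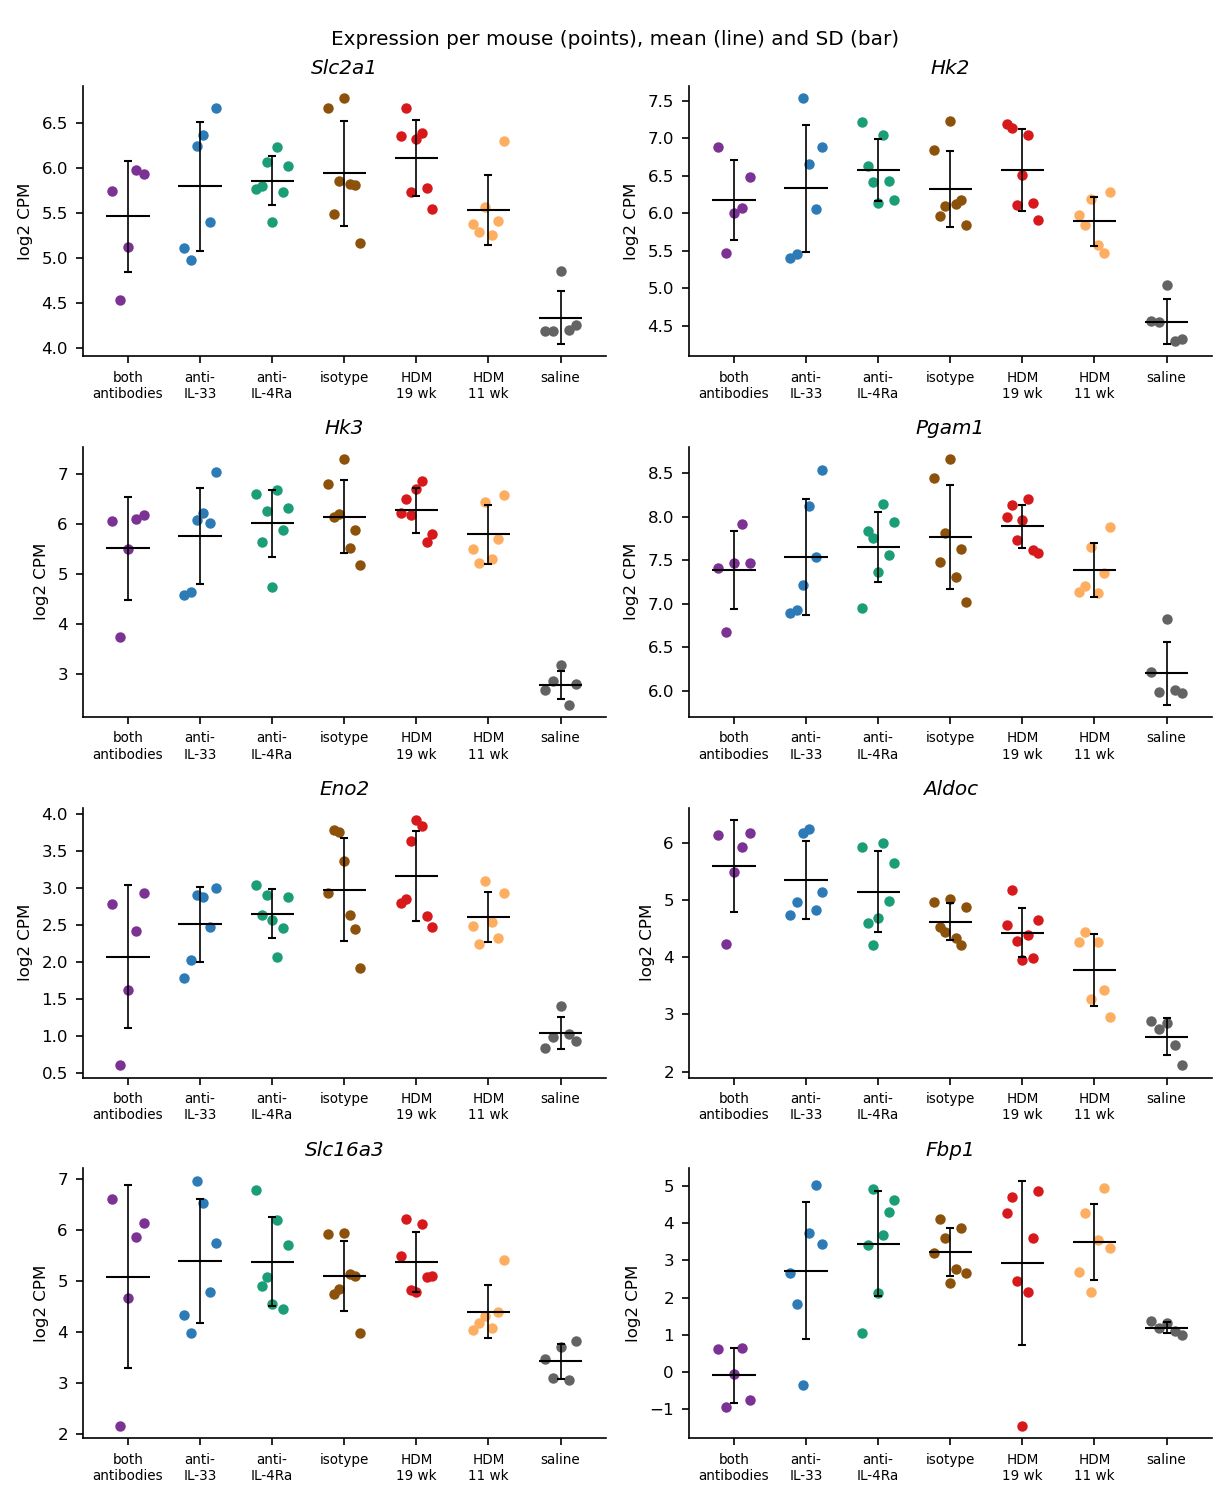
Log2 CPM per mouse (points), group mean (line) and SD (bar) of 8 genes in the 7 groups, from the combination on the left to saline on the right. Hk2 and Hk3 are above saline in every HDM group, while Fbp1 with the combination lies below both isotype and saline.

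In the lower steps, which harvest ATP, both aldolases passed at 19 weeks. Aldoc, the brain form of aldolase, was between 15.4 and 36.2 CPM (median 20.9) at 19 weeks, between 7.704 and 21.8 CPM (median 14.97) at 11 weeks and 7.297, 6.61, 7.15, 5.48 and 4.26 CPM with saline. No exposed lung overlapped with saline, and the differences were 1.86 ± 0.35 at 19 weeks (adjusted p = 8.24e-05) and 1.26 ± 0.35 at 11 weeks (adjusted p = 0.01). Aldoa, the muscle and general form, was far more abundant, with a mean level of 508 CPM per kilobase at 19 weeks and 241 with saline, where Aldoc had 8.05 at 19 weeks and 2.21 with saline. Aldoa was between 511 and 1096 CPM (median 674) at 19 weeks and 282, 269, 809, 259 and 245 CPM with saline. It overlapped through saline replicate 3, the highest of its group, and passed (log2 fold change 1.08 ± 0.35, adjusted p = 0.0165); with the GC slope as a covariate it was 0.34 (adjusted p = 0.153).

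Pgam1, phosphoglycerate mutase of non-muscle tissue (Gene ID 18648, chromosome 19, 41911871 to 41918665), was between 192 and 294 CPM (median 248) at 19 weeks, between 139.7 and 236 CPM (median 155) at 11 weeks and 74.6, 63.4, 113, 64.5 and 62.9 CPM with saline. All exposed lungs were above all saline lungs, a 3.16-fold increase at 19 weeks (log2 fold change 1.66 ± 0.29, adjusted p = 2.42e-05) and a 2.26-fold increase at 11 weeks (log2 fold change 1.18 ± 0.29, adjusted p = 0.00335). Gapdh, the dehydrogenase often used as a reference gene, was between 903 and 1806 CPM (median 1134) at 19 weeks and 439.6, 375, 1024, 362 and 343 CPM with saline. Gapdh overlapped only with saline replicate 3 and was 2.502-fold higher at 19 weeks (log2 fold change 1.32 ± 0.32, adjusted p = 0.00166), or 0.73 (adjusted p = 0.00495) on the log2 scale with the slope as a covariate. Tpi1 (0.69 ± 0.33) and Pgk1 (0.18 ± 0.26), the isomerase and the kinase on either side of Gapdh, did not pass at 19 weeks. Pkm, the pyruvate kinase of most tissues outside the liver, was between 429.8 and 906 CPM (median 573) at 19 weeks and 277, 259.7, 497, 269 and 246 CPM with saline. Its groups overlapped, it passed (log2 fold change 0.97 ± 0.35, adjusted p = 0.0278), and with the slope as a covariate the difference was 0.21 (adjusted p = 0.36). At 11 weeks Aldoa (0.35 ± 0.35), Gapdh (0.79 ± 0.32) and Pkm (0.45 ± 0.35) did not pass.

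The 3 enolases, which make phosphoenolpyruvate, differed from each other. Eno2, the neuronal form, was between 5.47 and 15.1 CPM (median 7.16) at 19 weeks, between 4.67 and 8.501 CPM (median 5.64) at 11 weeks and 1.73, 1.93, 2.59, 1.98 and 1.85 CPM with saline. Every exposed lung was above every saline lung, with 2.25 ± 0.35 at 19 weeks (adjusted p = 4.69e-06) and 1.61 ± 0.35 at 11 weeks (adjusted p = 9.02e-04). Eno1, the general form, did not pass at 19 weeks (1.34 ± 0.65, adjusted p = 0.102). Eno1 has a near-identical copy, Eno1b, and how the authors counted reads that match both is not given in the sources used here. All nonzero Eno1 values carried decimals, and 1 combination lung was given 2.80 CPM of Eno1 and 125 CPM of Eno1b. Summed, Eno1 and Eno1b came to 330.4 to 709 CPM at 19 weeks, 212 to 428 CPM at 11 weeks, and 154, 129, 379.8, 124 and 143 CPM with saline. The sum, chosen after the values were seen, was higher at 19 weeks (log2 fold change 1.33 ± 0.41, adjusted p = 0.0121) and not called at 11 weeks (0.65 ± 0.42, adjusted p = 0.342). All exposed lungs at both times were above the other saline lungs, but saline replicate 3 lay within the exposed range.

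**Figure D3:**
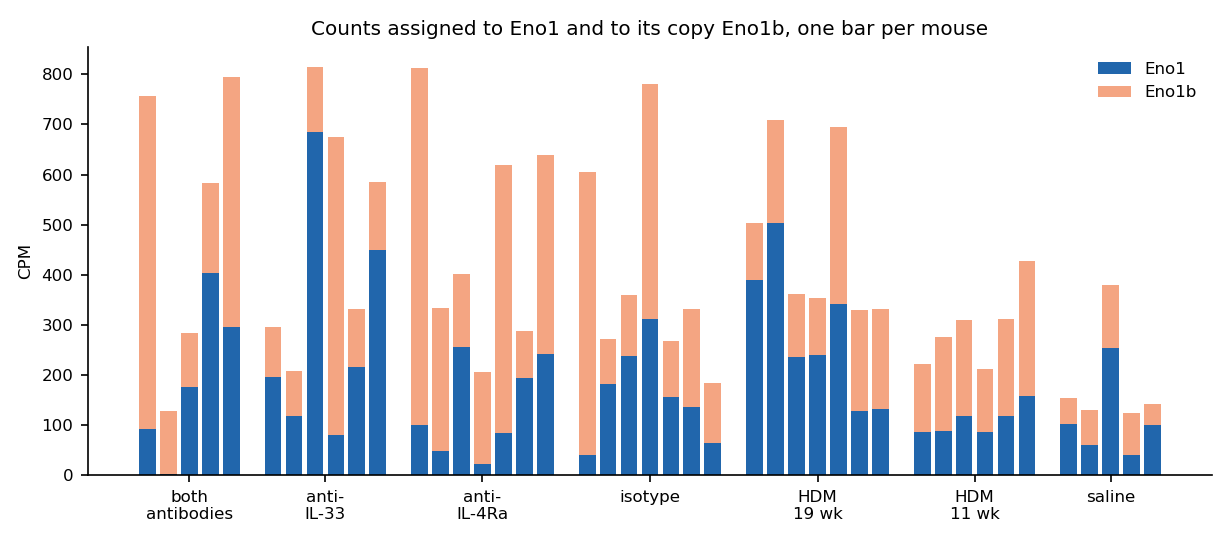
CPM assigned to Eno1 (lower part) and to its copy Eno1b (upper part), with 1 bar per mouse in the 7 groups. Eno1 is 2.19% to 69.2% of the sum over the combination lungs, against 31.8% to 40.2% over the 11-week lungs, while saline sums other than 379.8 CPM stay at or below 154 CPM.

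Eno3, the muscle form of enolase, was lower with HDM, and its saline values were uneven. It was between 6.304 and 36.2 CPM (median 8.73) at 19 weeks, between 6.05 and 10.4 CPM (median 9.78) at 11 weeks, and 19.4, 12.2, 129, 11.8 and 33.98 CPM with saline. Of the exposed lungs, 6 of 7 at 19 weeks and 6 of 6 at 11 weeks were below all saline lungs. The differences were -1.76 ± 0.45 at 19 weeks (adjusted p = 0.00251) and -2.16 ± 0.48 at 11 weeks (adjusted p = 0.00113). Saline replicate 3 and 19-week replicate 1, which had the highest Eno3 of their groups at 129 and 36.2 CPM, also held transcripts of other tissues. Their 10 skeletal muscle markers summed to 2536 CPM in the saline lung and 1957 CPM in the 19-week lung. The 8 squamous epithelium markers summed to 13216 and 4179.8 CPM in the same lungs. Over the other groups the muscle sums were 8.33 to 332 CPM with the combination, 6.64 to 24.7 CPM in the anti-IL-33 group, 4.56 to 267 CPM in the anti-IL-4Rα group, 5.55 to 97.9 CPM with isotype, and 5.15 to 8.65 CPM at 11 weeks, where at least 1 marker of each list was at 0 throughout. Without these 2 lungs Eno3 was -1.24 (adjusted p = 0.00524) at 19 weeks and -1.07 (adjusted p = 0.0263) at 11 weeks. Pfkm was likewise highest in these lungs (61.2 CPM at 19 weeks and 67.8 CPM with saline), and without them it was -0.06 (adjusted p = 0.858) at 19 weeks. Without saline replicate 3 alone, Eno3 was not called at either time (-0.69 and adjusted p = 0.161 at 19 weeks, -1.07 and adjusted p = 0.0708 at 11 weeks).

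**Figure D4:**
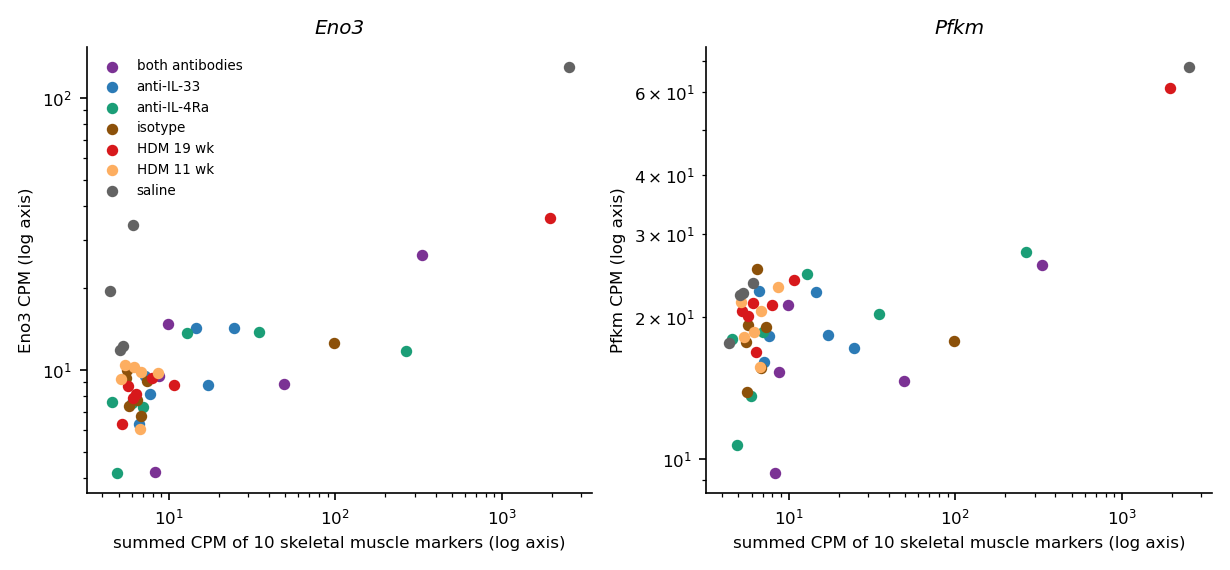
CPM of Eno3 (left) and Pfkm (right) against the summed CPM of 10 skeletal muscle markers, both on log axes, with 1 point per mouse coloured by group. Saline replicate 3 and 19-week replicate 1 stand apart at the right with 2536 and 1957 CPM of muscle markers and hold the highest Pfkm values.

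Saline replicate 3 was high for many other genes of the set as well. It was the highest saline lung for Slc2a1, Hk2, Hk3, Pgam1, Aldoa, Tpi1, Gapdh and Pkm. Without the pair, 17 of the 32 genes were higher, against 16.7% of all genes, and 2 lower, against 12%, at 19 weeks. At 11 weeks 10 were then higher, against 8.58% of all genes, and 1 lower, against 5.56%. Tpi1 then passed at 19 weeks with 1.13 (adjusted p = 0.0151), Ldha passed at 11 weeks with 1.17 (adjusted p = 0.00578), and Gapdh at 11 weeks with 1.21 (adjusted p = 0.0102). Fbp1 was 2.54 (adjusted p = 0.0172) at 19 weeks and Hk3 3.67 (adjusted p = 1.35e-06) without the pair.

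At the fate of pyruvate, the genes for lactate formation and export, Ldha and Slc16a3, rose at 19 weeks and Pdk4 fell. Ldha, which favours lactate formation, was between 286 and 400.1 CPM (median 319) at 19 weeks and 179, 148, 379.9, 147 and 126 CPM with saline. The groups overlapped through saline replicate 3, and Ldha passed at 19 weeks (log2 fold change 0.76 ± 0.29, adjusted p = 0.0366) and not at 11 weeks (0.79 ± 0.30, adjusted p = 0.0642). Ldhb, the heart form, did not pass at 19 weeks (-0.39 ± 0.19). Slc16a3, the lactate exporter MCT4 of glycolytic cells, was between 27.4 and 73.7 CPM (median 34.4) at 19 weeks, between 16.4 and 42.6 CPM (median 18.8) at 11 weeks and 10.9, 8.48, 12.9, 8.24 and 14.1 CPM with saline. All exposed lungs at both times lay above all saline lungs, and Slc16a3 passed at 19 weeks (log2 fold change 2.02 ± 0.53, adjusted p = 0.00322) and not at 11 weeks (1.03 ± 0.52). With the GC slope as a covariate its 19-week difference was 0.72 (adjusted p = 0.0156). Slc16a1, the general monocarboxylate carrier MCT1, had 0.00 ± 0.27 at 19 weeks, and 0.51 (adjusted p = 0.0361) with the slope as a covariate.

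Pyruvate dehydrogenase kinases inactivate pyruvate dehydrogenase, which turns pyruvate into acetyl-CoA in the mitochondria. Pdk4, the starvation form, was between 2.33 and 10.4 CPM (median 3.73) at 19 weeks and 8.83, 9.58, 9.81, 15.1 and 6.84 CPM with saline, and was called lower (log2 fold change -0.96 ± 0.38, adjusted p = 0.0435). That call held in 3 of the 12 fits that left out 1 lung, and it was lost without saline replicates 1 to 4 and without 19-week replicates 2, 5, 6, 7 and 8 (adjusted p up to 0.128). Pdk1, a HIF-1 target, was between 14.2 and 33.00 CPM (median 19.01) at 19 weeks, between 17.4 and 23.4 CPM (median 22.00) at 11 weeks and 37.7, 38.2, 38.03, 35.97 and 35.1 CPM with saline. Every exposed lung lay below every saline lung, but Pdk1 did not pass at 19 weeks (log2 fold change -0.78 ± 0.32, adjusted p = 0.0522) or at 11 weeks (log2 fold change -0.81 ± 0.33, adjusted p = 0.0982). In the fit without the steep libraries it passed, with -0.64 (adjusted p = 4.49e-04) at 19 weeks and -0.82 (adjusted p = 1.82e-05) at 11 weeks. Pdk3 had 0.04 ± 0.14 and did not pass.

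Several of the calls at 19 weeks rested on small margins. In the 12 fits that each left out 1 lung, Aldoa lost its call in 4, Gpi1 in 6, Pkm in 6 and Ldha in 7, with adjusted p up to 0.0571 for Aldoa, 0.0684 for Gpi1, 0.0725 for Pkm and 0.129 for Ldha. For Aldoa these lungs were saline replicates 1, 2, 4 and 5, which also ended the calls of Gpi1, Pkm and Ldha. In addition 19-week replicates 2 and 7 ended those of Gpi1 and Pkm, and replicates 2, 6 and 8 that of Ldha.

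Between 19 and 11 weeks none of the 32 genes was called by edgeR or by DESeq2, against 0.0876% of all genes higher and 0.0188% lower. At an unadjusted p under 0.05 there were 8 of the 32 genes and 14.4% of all genes. All 8 had higher values at 19 weeks: Slc2a1, Hk1, Hk2, Pfkl, Aldoa, Eno1, Eno2 and Slc16a3, with Hk2 at 0.74 ± 0.29 (adjusted p = 0.297). Between isotype and 19 weeks of HDM without antibody, edgeR and DESeq2 called none of the 32 genes, and edgeR called 0% of all genes. There, 1 of the 32, Slc2a3, had an unadjusted p under 0.05 (-0.70 ± 0.29, adjusted p = 0.977).

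With isotype antibody the values against saline stood near those of HDM alone, with the same saline lungs. Slc2a1 had 1.68 ± 0.30, Hk2 1.83 ± 0.33, Hk3 3.52 ± 0.45, Pfkfb4 1.02 ± 0.24, Pgam1 1.63 ± 0.29, Eno2 2.09 ± 0.35 and Slc16a3 1.77 ± 0.52. For each of these, all 7 isotype lungs were above all saline lungs. The same held for Aldoc, Fbp1 and Pfkfb2, and for 13.5% of all genes. DESeq2 did not call Pfkfb2 (0.96, adjusted p = 0.141). Aldoc (2.03 ± 0.35), Gapdh (1.16 ± 0.32), Ldha (0.88 ± 0.29) and Pfkl (1.10 ± 0.41) were also called higher. The call of Pfkl was lost in 8 of 12 fits that left out 1 lung (adjusted p up to 0.106) and that of Ldha in 6 of 12 (up to 0.0886).

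Given alone, neither antibody moved any of the 32 genes past the threshold. With anti-IL-33 against isotype, edgeR called none of them and 0% of all genes, and 2 of the 32 had an unadjusted p under 0.05. These were Aldoc (0.84 ± 0.31, adjusted p = 0.25) and Fbp2 (-2.18 ± 1.01, adjusted p = 0.269). DESeq2 gave no adjusted p for 24 of the 32 genes in this comparison, Aldoc, Fbp1 and Fbp2 among them, and called none of the rest. With anti-IL-4Rα against isotype, edgeR again called none of them and 0% of all genes, and 1 of the 32, Aldoc, had an unadjusted p under 0.05 (0.64 ± 0.30, adjusted p = 0.33). Here DESeq2 gave no adjusted p for 12 of the 32 genes, including Aldoc and Fbp1, and called none of the rest. Fbp1 was between 0.729 and 32.5 CPM (median 8.51) in the anti-IL-33 group, between 2.002 and 30.2 CPM (median 12.7) in the anti-IL-4Rα group and between 5.18 and 17.1 CPM (median 9.12) with isotype. The groups overlapped, and the log2 fold changes were 0.14 ± 0.61 and 0.56 ± 0.59.

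With the combination, Fbp1 fell below isotype and below the saline range. It was 1.49, 0.466, 0.914, 1.52 and 0.541 CPM with the combination, between 5.18 and 17.1 CPM with isotype, and 2.54, 2.203, 2.42, 2.100 and 1.95 CPM with saline. The combination lungs held 16, 7, 20, 25 and 7 counts, against 90 to 372 with isotype. All 5 combination lungs lay below all 7 isotype lungs (log2 fold change -3.36 ± 0.77, adjusted p = 0.0086), a separation downward that 2.55% of all genes showed. Against anti-IL-4Rα alone, all 5 lay below all 7 as well (log2 fold change -3.92 ± 0.79, adjusted p = 0.0205), as did 0.169% of all genes. Against anti-IL-33 alone, where replicate 4 at 0.729 CPM fell within the combination range, the difference was not called (log2 fold change -3.50 ± 0.78, adjusted p = 0.0955), while DESeq2 called it at -3.49 (adjusted p = 4.51e-04). All 5 combination lungs were also below all 5 saline lungs, but that difference was not called (log2 fold change -1.19 ± 0.76, adjusted p = 0.191). The comparisons with isotype and with each single antibody share the combination lungs.

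The Fbp1 difference from isotype kept its size with other settings. Adding the GC slope to the fit gave -3.42 (adjusted p = 0.00902), and the difference was called in all 12 fits that left out 1 lung. Without the 10 steep libraries, 3 of them from combination lungs, it was -3.82 (adjusted p = 0.0523) and no longer called, with 2 combination lungs left. The call against anti-IL-4Rα was lost when any 1 of the 5 combination lungs, replicates 1, 2, 3, 5 and 8, was left out (log2 fold changes -4.14 to -3.74, adjusted p up to 0.084). Per 100 phosphofructokinase counts there were 0.188 to 0.733 counts of Fbp1 with the combination (median 0.563), 2.06 to 11.5 with isotype (median 4.85), and 1.13 to 2.17 with saline (median 1.68), with no overlap of the combination with either group.

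Some markers of alternatively activated macrophages were lower with the combination than with isotype, as Fbp1 was, but unlike Fbp1 their sum stayed above saline. The 6 markers summed to 4784 to 11724 CPM with the combination, 11426 to 26994 CPM in the anti-IL-33 group, 9584 to 20736 CPM in the anti-IL-4Rα group, 7436 to 19444 CPM with isotype and 173 to 709 CPM with saline. Of the 6, 3 were called lower with the combination than with isotype: Arg1, arginase (-4.48 ± 0.92, adjusted p = 0.00549), Retnla (-2.21 ± 0.47) and Mmp12 (-2.17 ± 0.58). None of the 6 was at 0 in a whole group. The 11 markers of monocytes and macrophages in general summed to 9482 to 26163 CPM with the combination and 7705 to 12326 CPM with isotype, with 1 called higher and 1 lower. The part of these cells in the Fbp1 result was not tested.

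Relative to isotype, the combination lungs also had lower Slc16a1, Pgk1 and Slc2a3 and higher Aldoc. In all, 1 of the 32 genes was called higher, against 12.6% of all genes, and 4 were called lower, against 6.32% of all genes. The shares over all genes rested on single lungs: they were 0.503% higher and 0.783% lower without combination replicate 1, 1.77% and 1.13% without replicate 8, and 25.1% and 23.9% without replicate 2, and the counts of the 32 genes were then 0 and 1, 0 and 1, and 2 and 6. Over the 32 genes the median log2 fold change was -0.10, against 0.04 over all genes. Slc16a1 was 18.8, 40.4, 46.4, 26.5 and 14.00 CPM with the combination and between 49.3 and 89.4 CPM (median 60.8) with isotype. No combination lung overlapped with isotype (log2 fold change -1.14 ± 0.28, adjusted p = 0.013). Pgk1 was 36.1, 47.5, 105, 93.3 and 56.7 CPM with the combination and between 86.7 and 166 CPM (median 121) with isotype. Of the combination lungs, 3 lay below all isotype lungs (log2 fold change -0.85 ± 0.26, adjusted p = 0.0301). Slc2a3 was 3.64, 5.46, 9.33, 8.98 and 7.97 CPM with the combination and between 9.02 and 23.5 CPM (median 11.97) with isotype, with 4 lungs below all isotype lungs (log2 fold change -0.89 ± 0.32, adjusted p = 0.0486). Aldoc was 71.03, 18.7, 45.3, 61.05 and 72.5 CPM with the combination and between 18.5 and 32.3 CPM (median 23.2) with isotype, with 4 lungs above all isotype lungs (log2 fold change 1.09 ± 0.32, adjusted p = 0.0254).

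These 4 smaller differences changed when the GC slope was added to the fit or the steep libraries were left out. With the slope as a covariate Slc16a1 was -0.92 (adjusted p = 0.00348), Pgk1 -0.74 (adjusted p = 0.0432), Slc2a3 -0.77 (adjusted p = 0.0834) and Aldoc 0.59 (adjusted p = 0.0663). Without the steep libraries Slc16a1 was -0.57 (adjusted p = 0.0641), Pgk1 -0.67 (adjusted p = 0.151), Slc2a3 -0.81 (adjusted p = 0.141) and Aldoc 0.36 (adjusted p = 0.476). With the covariate 9 of the 32 genes were lower, against 9.36% of all genes, and 0 higher, against 5.95%, adding Slc2a1 at -0.84 (adjusted p = 0.0118), Hk3 at -1.06 (adjusted p = 0.0262), Eno2 at -1.15 (adjusted p = 0.0173), Pfkfb2 at -1.17 (adjusted p = 0.00706), Pfkp at -0.68 (adjusted p = 0.0469) and Slc16a3 at -0.70 (adjusted p = 0.0352). For Slc16a3 this turned the sign of an uncalled 0.45 ± 0.49. Left out singly, isotype replicate 1 and combination replicates 1 and 8 each ended the call of Pgk1 (adjusted p up to 0.163), and combination replicates 1 and 8 each ended those of Slc16a1 (up to 0.071) and Aldoc (up to 0.123). The call of Slc2a3 was lost in 11 of 12 such fits (adjusted p up to 0.22) and held only without combination replicate 3.

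**Figure D5:**
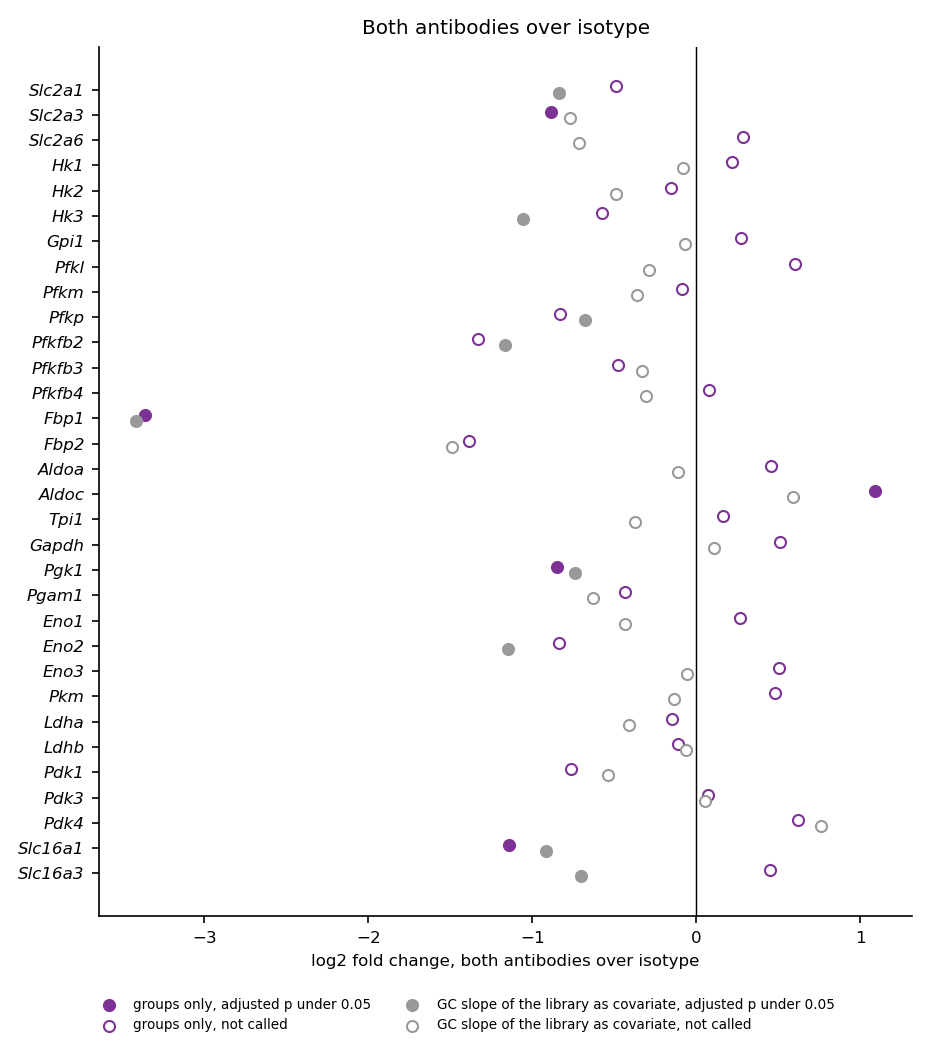
Log2 fold change of the combination (n = 5) over isotype (n = 7) for the 32 genes, from the fit on groups alone (purple) and from the fit that adds the GC slope as a covariate (grey). Filled points passed an adjusted p of 0.05, and Fbp1 lies farthest to the left in both fits while most glycolytic genes shift left with the covariate.

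The combination lungs were compared with each single antibody as well. Against anti-IL-33, edgeR called none of the 32 genes, with 0% of all genes higher and 0.0438% lower, DESeq2 called 1, and 3 had an unadjusted p under 0.05. Apart from Fbp1 these were Slc2a3 (-0.76 ± 0.33) and Slc16a1 (-0.64 ± 0.29). Against anti-IL-4Rα, edgeR called 1, Fbp1, lower and 0 higher, with 0.1% of all genes lower and 0.0188% higher.

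Set against saline, the combination lungs had higher Hk2, Hk3 and Aldoc, while Fbp1 did not stand above saline. Of the 32 genes, 15 were higher, against 27.8% of all genes, and 7 lower, against 20.3% of all genes, in the fit on groups alone. With the GC slope as a covariate 5 were higher, against 11.6% of all genes, and 4 lower, against 11.7%, and without the steep libraries 3 were higher, against 10.6%, and 4 lower, against 7.17%, so that the shares higher stood near those of all genes. Hk3 was 67.5, 13.4, 45.5, 68.8 and 72.5 CPM with the combination against 6.38, 7.22, 9.02, 5.21 and 6.97 CPM with saline, and its lowest combination value was still above every saline lung (log2 fold change 2.94 ± 0.45, adjusted p = 6.35e-06). Hk2 was 117, 44.2, 63.96, 67.3 and 89.2 CPM with the combination against 23.7, 23.4, 32.7, 19.6 and 19.9 CPM with saline, with no overlap (log2 fold change 1.68 ± 0.34, adjusted p = 3.17e-04). Aldoc had the largest difference of the 32 genes in this comparison, with 71.03, 18.7, 45.3, 61.05 and 72.5 CPM with the combination against 7.297, 6.61, 7.15, 5.48 and 4.26 CPM with saline, again with no overlap (log2 fold change 3.12 ± 0.38, adjusted p = 1.07e-07). Slc2a1 was 53.7, 23.1, 34.7, 62.7 and 60.9 CPM with the combination, and 4 of 5 lungs were above all saline lungs (log2 fold change 1.20 ± 0.31, adjusted p = 0.00304). Slc16a3 ranged widely, with 97.6, 4.396, 25.4, 57.6 and 70.1 CPM with the combination (log2 fold change 2.22 ± 0.56, adjusted p = 0.00211), and its lowest lung was below all saline lungs.

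Of the genes that were lower than saline with the combination, Pdk1 separated fully, with 6.52, 22.05, 18.7, 10.4 and 6.19 CPM with the combination against 37.7, 38.2, 38.03, 35.97 and 35.1 CPM with saline (log2 fold change -1.53 ± 0.36, adjusted p = 0.00119). Slc2a3 was below all saline lungs in all 5 combination lungs (15.3, 26.4, 17.03, 19.1 and 22.4 CPM with saline, log2 fold change -1.50 ± 0.35, adjusted p = 0.00111). Pfkp was 17.5, 53.8, 55.04, 27.9 and 15.9 CPM with the combination against 62.1, 65.4, 67.5, 62.8 and 60.7 CPM with saline, also without overlap (log2 fold change -0.90 ± 0.34, adjusted p = 0.0282). Slc16a1 was 65.8, 63.1, 50.2, 52.2 and 47.02 CPM with saline and lay above all combination lungs (log2 fold change -0.93 ± 0.30, adjusted p = 0.0119). Ldhb was 42.6, 68.7, 74.3, 67.2 and 44.6 CPM with the combination against 105, 90.8, 85.6, 91.7 and 71.5 CPM with saline, where 4 of 5 lungs lay below all saline lungs (log2 fold change -0.58 ± 0.20, adjusted p = 0.02). Leaving out 1 of the 10 lungs ended the call of Pfkp in 3 fits (combination replicates 1, 5 and 8, adjusted p up to 0.101) and that of Ldhb in 3 (combination replicates 1 and 8 and saline replicate 1, up to 0.0787). The call of Slc16a1 was lost without combination replicate 8 (adjusted p = 0.0511). Pfkm (-0.83 ± 0.31) and Eno3 (-1.70 ± 0.50) were called lower too, but without saline replicate 3 and 19-week replicate 1 they were -0.32 (adjusted p = 0.243) and -0.61 (adjusted p = 0.144).

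The size of the combination's distance from saline differed between fits, and the mean GC slope was 0.34 against -0.62 in these groups. The slope is computed from these same counts, so a tilt of the libraries and a difference between the groups cannot be told apart. With the slope as a covariate and without the steep libraries, in that order, Hk3 was 2.004 (adjusted p = 1.66e-04) and 2.08 (adjusted p = 0.00631), Hk2 0.95 (adjusted p = 0.00524) and 1.17 (adjusted p = 0.0179), and Aldoc 2.24 (adjusted p = 1.00e-07) and 2.38 (adjusted p = 2.84e-06). Slc2a1, called on the groups alone, was 0.49 (adjusted p = 0.147) and 0.49 (adjusted p = 0.402), and Slc16a3 was 0.21 (adjusted p = 0.62) and 0.45 (adjusted p = 0.554). Fbp1 was -1.28 (adjusted p = 0.322) and -1.66 (adjusted p = 0.307), not called in either.

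Neighbouring genes of the pathway were read from lists. Their counts stand against the shares of all genes called, 19.2% higher and 15.6% lower at 19 weeks and 8.65% and 6.74% at 11 weeks. Of 27 further glycolytic and gluconeogenic genes, 20 were tested, and 8 were higher and 3 lower at 19 weeks, 3 higher and 1 lower at 11 weeks, with a median log2 fold change of 0.19 at both times. With the GC slope as a covariate 6 were higher and 7 lower at 19 weeks, and 4 and 5 at 11 weeks. Of all 15979 genes, that fit called 3130 higher and 2698 lower at 19 weeks, and 2407 and 2110 at 11 weeks. Without the steep libraries 9 were higher and 5 lower at 19 weeks, and 4 and 3 at 11 weeks. Of 16414 genes, that fit called 3768 higher and 3801 lower at 19 weeks, and 2764 and 3109 at 11 weeks. Pklr, the liver and red-cell pyruvate kinase, was higher at 19 weeks (3.69 ± 0.42, adjusted p = 1.68e-08) and at 11 weeks (3.72 ± 0.42, adjusted p = 2.34e-08). Hkdc1, a further hexokinase of epithelia, was higher at 19 weeks (2.66 ± 0.28, adjusted p = 3.13e-09) and at 11 weeks (1.92 ± 0.28). Pck1, the cytosolic enzyme that begins gluconeogenesis from oxaloacetate, was lower at 19 weeks (-2.40 ± 0.71, adjusted p = 0.00851) and at 11 weeks (-2.84 ± 0.76, adjusted p = 0.00789). With the combination against isotype 1 of the 20, the insulin-responsive transporter Slc2a4, was higher (2.32 ± 0.71, adjusted p = 0.0283) and 0 were lower, against 12.6% and 6.32% of all genes. With the GC slope as a covariate 0 of the 20 were called, against 5.95% of all genes higher and 9.36% lower. Without the steep libraries 0 were called as well, against 479 genes higher and 207 lower of 16414. The fit on groups alone gave 0 calls in this list for 19 against 11 weeks, isotype against 19 weeks and each single antibody against isotype.

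The lists of adjoining pathways are read against the same shares of all genes. For the fits with the GC slope and without the steep libraries, the counts over all genes given for the previous list apply. Of the 8 genes of the pentose phosphate pathway, which branches off at glucose 6-phosphate, 3 were higher and 0 lower at 19 weeks and 0 were called at 11 weeks. They were Pgd (1.15 ± 0.32, adjusted p = 0.00604), Pgls (2.04 ± 0.65) and Rpia (0.55 ± 0.21). Of 12 genes for pyruvate entry into mitochondria, 0 were higher and 2 lower at 19 weeks, Pdp1, a phosphatase that activates pyruvate dehydrogenase (-1.10 ± 0.22, adjusted p = 2.36e-04), and Pdha1, a subunit of that enzyme (-0.88 ± 0.30). Of 16 citrate cycle genes 3 were higher and 2 lower at 19 weeks, near the shares of all genes, with a median of 0.04, and 0 were called at 11 weeks. Of 20 HIF-1 targets outside glycolysis 6 were higher and 2 lower at 19 weeks. Ndrg1 (1.27 ± 0.24, adjusted p = 9.81e-05), Ankrd37 (1.61 ± 0.34) and Ddit4 (1.84 ± 0.40) were higher, whereas Vegfa, a growth factor for vessels (-1.53 ± 0.39), and Bnip3 (-0.61 ± 0.21) were lower. Of 6 HIF subunits and regulators 1, Epas1, was lower (-1.29 ± 0.39, adjusted p = 0.00895) and 0 were higher. With the GC slope as a covariate 1 pentose phosphate gene was higher and 0 lower at 19 weeks, and of pyruvate entry 1 and 1. Of the citrate cycle 0 were higher and 1 lower, and of the HIF-1 targets 7 and 4. Of the HIF subunits and regulators 1 was higher and 0 lower, so Epas1 was not called lower. Without the steep libraries the lists held 2 and 0, 1 and 2, 2 and 3, and 6 and 3. The last list then held 2 and 1.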

How the data were processed

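RNA sequencing of whole lung gave 43 libraries, read as single reads of 33 cycles from stranded poly(A) libraries, per the labels' protocols. The deposited values are expected counts, estimates of reads for each NCBI Gene ID that need not be whole, made by the authors on mm10 per the submitters' processing notes. Aligner, counting program and use of strand: not given in the sources used here. Of the nonzero values 76.8% were whole numbers, and the source of the decimals in the rest was not tested. Among the 32 genes, all values of Gpi1, Pfkfb2, Pfkfb3, Aldoa, Pgk1, Eno1 and Pdk4 carried decimals, as did 97.7% for Gapdh, 95.3% for Ldha and 93% for Hk2, so these may share reads with copies and are less certain. Highest correlation between libraries was 0.986, and no pair was identical.

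Expected counts were rounded. Genes were filtered with filterByExpr by group, scaled with TMM and fitted in edgeR 4.0.16 (R 4.3.3, limma 3.58.1) with a robust quasi-likelihood model of 7 group means over all 43 libraries (36 residual degrees of freedom and a biological coefficient of variation of 0.431). Tests were 2-sided, adjusted after Benjamini and Hochberg over all 15979 genes tested, and called under 0.05. Errors beside log2 fold changes are standard errors, CPM uses TMM-scaled totals, and log2 CPM uses a prior count of 1. The steps were tested on simulated data. Gene positions are RefSeq's for GRCm38.p6, the assembly of mm10, and transcript GC and length come from the longest coding GENCODE transcript, known for 95.3% of genes tested.

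Values per mouse are given for genes called in at least 1 of 11 comparisons and for Fbp1, led by those called most often. From the pathway lists, up to 4 called genes are named by smallest adjusted p, except 1 gene that is not reported here; the 2 lower HIF-1 targets were named after their values were seen. The members and lists were chosen with earlier results of these data known. Alternatives were DESeq2 1.42.0, its size factors, upper-quartile factors, no filter, the replicate number as a block, the GC slope as a covariate, omission of the 10 steep libraries, the compared groups alone, and leaving out each library. Those added after seeing these data were leaving out saline replicate 3 with 19-week replicate 1, leaving out anti-IL-4Rα replicate 2, and adding Eno1 and Eno1b.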

Additional observations from a re-analysis of the deposited data

Results flagged for a closer look

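Single lungs stood apart from their groups in log2 CPM by Dixon's criterion at the 95% level in 23 of the 224 combinations of gene and group, or 10.3%, where chance gives about 1 in 20. Saline replicate 3, which also held the muscle and squamous transcripts, was the highest saline lung for Slc2a1 (log2 CPM 4.86), Pfkl (6.28), Pfkm (6.08), Aldoa (9.66), Tpi1 (7.57), Gapdh (10), Pgam1 (6.82) and Pkm (8.96). At 19 weeks, replicate 1, with the same foreign markers, was highest for Pfkm (5.94) and Eno3 (5.18), replicate 2 was highest for Pfkfb4 (6.73), and replicate 6 was lowest for Fbp1 (-1.45). At 11 weeks, replicate 9 was highest for Slc2a1 (6.29) and Slc16a3 (5.41), and replicate 4 was lowest for Eno3 (2.61).

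Anti-IL-4Rα replicate 2 was the lowest of its group for Slc2a3 (log2 CPM 1.3), Pfkp (3.64), Pfkfb3 (4.25), Pdk1 (1.92) and Slc16a1 (4.26). Its erythroid markers summed to 185354 CPM, the most of any lung, and the part of red-cell RNA in these values was not tested. Combination replicate 2 was the lowest of its group for Hk3 (3.75), isotype replicate 4 was the highest for Slc2a3 (4.56), and isotype replicate 6 was the highest for Pfkfb3 (6.42).

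Fbp1 differed between the combination and anti-IL-4Rα alone, both groups labelled with 19 weeks of HDM, by a log2 fold change of -3.92 in the test of that difference.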

How the results depend on the processing

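Counts of the 32 genes called higher and lower are given in that order, and those over all genes tested follow. The edgeR fit on groups alone called 1382 and 1077 of all genes at 11 weeks and 3072 and 2490 at 19 weeks. With isotype it called 2073 and 1977. For the combination it called 2019 and 1010 against isotype, 3 and 16 against anti-IL-4Rα, and 4441 and 3240 against saline. DESeq2, DESeq2 size factors, upper-quartile factors and fits without a count filter kept most counts, but the genes lower at 11 weeks numbered 2 with the first 3 settings (1 in edgeR), and those lower with isotype against saline numbered 4, 3 and 2 (1 in edgeR). Over all genes those 3 settings called 1426, 1188 and 1088 lower at 11 weeks, and 2368, 2088 and 2036 with isotype. DESeq2 added 1 lower for the combination against anti-IL-33, where it called 19 of all genes lower. With the GC slope as a covariate the counts were 13 and 4 at 11 weeks and 13 and 2 at 19 weeks. Isotype against saline gave 14 and 2. For the combination they were 0 and 9 against isotype, 0 and 3 against anti-IL-4Rα, and 5 and 4 against saline. Slc16a3 for the combination against isotype turned to -0.70. All genes then gave 2407 and 2110 at 11 weeks, 3130 and 2698 at 19 weeks and 3061 and 2933 with isotype. For the combination they gave 950 and 1496 against isotype, 122 and 481 against anti-IL-4Rα, and 1854 and 1877 against saline. Without the steep libraries the counts of the 32 genes were 13 and 4 at 11 weeks and 16 and 3 at 19 weeks. With isotype they were 17 and 6. The combination gave 0 and 1 against isotype, 0 and 0 against anti-IL-4Rα, and 3 and 4 against saline. All genes then gave 2764 and 3109 at 11 weeks, 3768 and 3801 at 19 weeks and 4028 and 4332 with isotype. For the combination they gave 479 and 207 against isotype, 23 and 20 against anti-IL-4Rα, and 1735 and 1177 against saline. In fits of the compared groups alone the counts of the 32 genes were 13 and 5 at 11 weeks, 19 and 5 at 19 weeks, 17 and 6 with isotype, 1 and 2 for the combination against isotype, 0 and 0 against anti-IL-4Rα, and 11 and 4 against saline. All genes then gave 3003 and 3035 at 11 weeks, 4233 and 3965 at 19 weeks and 3999 and 4079 with isotype. For the combination they gave 1325 and 499 against isotype, 0 and 0 against anti-IL-4Rα, and 3185 and 1660 against saline. Without anti-IL-4Rα replicate 2 the genes lower, of the 32, numbered 3 at 11 weeks, 3 with isotype and 7 for the combination against isotype. Over all genes 1222, 2193 and 1618 were then lower, in that order. The cause of these shifts was not tested. The slope comes from the same counts and differs between groups, so its part cannot be told apart from group differences.

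Whether the replicate numbers pair the mice is not given by the labels, and correlations near 0 cannot exclude it. Over 88 pairs of lungs with the same number in other groups, the median correlation of deviations was -0.0118 and the lowest -0.696, with 31 over 0.1. For 702 pairs with other numbers the median was 0.00779 and the lowest -0.749, with 280 over 0.1. With the replicate block the counts were 6 and 2 at 11 weeks, 13 and 3 at 19 weeks, 10 and 1 with isotype, 0 and 2 for the combination against isotype, 0 and 0 against anti-IL-4Rα, and 14 and 7 against saline. All genes then gave 1142 and 802 at 11 weeks, 2136 and 1707 at 19 weeks and 1720 and 1573 with isotype. For the combination they gave 262 and 289 against isotype, 0 and 0 against anti-IL-4Rα, and 3675 and 3010 against saline.

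With single lungs left out, the genes higher numbered 8 to 10 and those lower 0 to 2 at 11 weeks, 12 to 18 and 0 to 3 at 19 weeks, and 10 to 16 and 1 to 3 with isotype. They were 0 to 2 and 1 to 7 for the combination against isotype, 0 and 0 to 1 against either single antibody, and 13 to 17 and 4 to 9 against saline. Counts stayed at 0 for 19 against 11 weeks, isotype against 19 weeks and each single antibody against isotype. The counts without any genes lower at 11 and 19 weeks came without saline replicate 3. The lowest count for the combination against isotype, 1 gene lower, came without combination replicate 1 and also without combination replicate 8. Low counts limit Fbp2 and, with the combination, Fbp1.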

Other observations

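Beyond the glycolytic genes, genes of the pentose phosphate pathway were higher with the combination than with saline in the fit on groups alone, where 27.8% of all genes were higher and 20.3% lower. Of 8 genes of the pentose phosphate pathway 6 were called higher and 0 lower, led by Pgd (1.57 ± 0.35, adjusted p = 7.72e-04), Pgls (2.82 ± 0.70) and Rpia (0.78 ± 0.22), and the median log2 fold change over the 8 was 1.01. Of 12 genes for pyruvate entry into mitochondria 2 were higher, among them the pyruvate carrier subunit Mpc1 (1.30 ± 0.32, adjusted p = 0.00187), and 4 were lower, among them Pdha1 (-1.30 ± 0.33, adjusted p = 0.0025). Of 20 HIF-1 targets outside glycolysis 4 were higher and 6 lower. Adding the GC slope as a covariate left 2 of the 8 pentose phosphate genes higher and 0 lower, 0 and 2 of the 12 genes of pyruvate entry, and 2 and 4 of the 20 HIF-1 targets, against 11.6% and 11.7% of all genes. Without the steep libraries 0 pentose phosphate genes were called, against 10.6% higher and 7.17% lower over all genes.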
